A study of Mus musculus with 48 samples.

Results

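The nuclear-encoded subunits of the mitochondrial respiratory chain and ATP synthase were followed in poly(A) RNA of mouse embryonic fibroblasts (MEFs) and of cells on the way to induced pluripotency. Members were the genes named *Nduf* (a, b, c, s or v with a number), *Sdha* to *Sdhd*, *Uqcr*, *Cox4* to *Cox8* or *Atp5* with at least 1 FPKM (fragments scaled to transcript length and library size, a level per length) in at least 3 libraries. Of 84 matching names among 24010 genes, 80 passed this filter: 37 of complex I, 4 of complex II, 8 of complex III, 14 of complex IV and 17 of complex V. The remaining 4 were the alternative isoforms *Cox6a2*, *Cox7b2*, *Cox8b* and *Cox8c*, each under 1 FPKM in all 48 libraries. The names place a few genes loosely. *Ndufa4* and *Ndufa4l2* were counted with complex I by symbol, although the NDUFA4 protein is known as a subunit of complex IV. *Cox7a2l* encodes a supercomplex factor, and *Atp5s* and *Atp5sl* encode factors that are not subunits of the ATP synthase.

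All cells were MEFs of *Rosa26*-M2rtTA; *Col1a1*-4F2A; *Oct4*-GFP mice, which carry the reverse tetracycline transactivator, a doxycycline-inducible cassette of Oct4, Sox2, Klf4 and c-Myc (OSKM) and a GFP reporter of *Oct4*. The MEF group was not induced and was grown in fibroblast medium. The other 15 groups received doxycycline at 1 µg/ml in ES medium with LIF and were taken on days 3, 6, 9, 12 and 15 of OSKM with an empty vector (Control OE), with *Mettl14* (*Mettl14* OE) or with *Mettl3* (*Mettl3* OE), the genes of the m6A RNA methyltransferase. Each of the 16 groups had 3 libraries. The cells were collected in bulk, so a mixture of reprogramming and other cells was read in each library, and fewer cells of a type cannot be told apart from less RNA per cell. The labels do not say whether libraries of a group came from separate cultures, so the p-values measure only the spread between these libraries.

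The respiratory chain passes electrons from NADH (complex I) and succinate (complex II) through ubiquinone to complex III, then through cytochrome c to complex IV, where oxygen is reduced. Complexes I, III and IV pump protons, and complex V uses the gradient to make ATP. Most subunits come from nuclear genes with short transcripts, and a few core subunits come from the mitochondrial genome, which was not analysed here. Pluripotent cells are known to lean on glycolysis, and fibroblasts turned into pluripotent cells are known to move away from respiration.

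The promoters of these genes are known for sites of NRF1, ETS-family factors such as GABP, and YY1. Of the 80 members, 67 had a promoter in the RefSeq table of GRCm38.p6, which spans 250 bases before to 50 bases after the annotated start. The letters GCATGCG, the core of the NRF1 site, stood in 11 of them (16.4%) against 4.95% of 17491 protein-coding genes, CCGGAAG (ETS) in 16 (23.9%) against 12.9%, and ATGGCGG (YY1) in 11 (16.4%) against 6.05%, on either strand. ACGTG, the core of the site of the hypoxia-inducible factor (HIF), stood in 18 (26.9%) against 23.2%. The background held protein-coding genes at any level, while the members had passed the FPKM filter. The shares therefore cannot be read as particular to respiratory chain genes. The NRF1 letters and their reverse complement overlap in the *Cox6a1* and *Uqcrc1* windows, where the capitals run over both, and no other matches overlap in the windows printed. The 5 sequences printed here show the NRF1, ETS and YY1 letters in place in 4 members, together with *Uqcrfs1*, the member that differed from Control OE most often, which held none of these letters in its window. Capitals mark the motif, the strand is that of the gene, and the windows are chr5:115348909-115349208 (minus strand) for *Cox6a1*, chr9:108936398-108936697 (plus) for *Uqcrc1*, chr6:126849095-126849394 (minus) for *Ndufa9*, chr7:30626065-30626364 (minus) for *Cox6b1* and chr13:30545267-30545566 (minus) for *Uqcrfs1*.
Cox6a1: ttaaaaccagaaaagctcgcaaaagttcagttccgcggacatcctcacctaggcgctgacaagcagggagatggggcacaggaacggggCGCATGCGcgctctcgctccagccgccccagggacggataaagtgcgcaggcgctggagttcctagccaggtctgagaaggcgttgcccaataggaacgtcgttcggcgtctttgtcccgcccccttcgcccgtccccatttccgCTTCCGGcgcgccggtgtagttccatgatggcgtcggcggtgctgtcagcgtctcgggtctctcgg
Uqcrc1: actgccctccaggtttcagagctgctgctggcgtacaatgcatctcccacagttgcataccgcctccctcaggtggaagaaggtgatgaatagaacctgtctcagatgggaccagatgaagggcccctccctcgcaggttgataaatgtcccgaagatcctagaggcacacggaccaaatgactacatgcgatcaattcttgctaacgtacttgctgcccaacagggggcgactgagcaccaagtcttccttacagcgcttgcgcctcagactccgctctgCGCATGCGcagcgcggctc
Ndufa9: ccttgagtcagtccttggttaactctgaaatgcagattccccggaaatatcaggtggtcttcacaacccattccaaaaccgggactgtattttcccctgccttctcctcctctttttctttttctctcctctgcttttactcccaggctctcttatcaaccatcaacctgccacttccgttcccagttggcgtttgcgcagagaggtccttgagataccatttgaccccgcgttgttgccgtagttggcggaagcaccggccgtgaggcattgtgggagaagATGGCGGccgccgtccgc
Cox6b1: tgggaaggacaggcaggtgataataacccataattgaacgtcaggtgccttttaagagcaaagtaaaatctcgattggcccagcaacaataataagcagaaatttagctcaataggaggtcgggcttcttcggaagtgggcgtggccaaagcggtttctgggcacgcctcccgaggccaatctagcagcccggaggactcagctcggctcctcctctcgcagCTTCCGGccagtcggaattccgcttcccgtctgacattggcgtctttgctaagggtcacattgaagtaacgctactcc
Uqcrfs1: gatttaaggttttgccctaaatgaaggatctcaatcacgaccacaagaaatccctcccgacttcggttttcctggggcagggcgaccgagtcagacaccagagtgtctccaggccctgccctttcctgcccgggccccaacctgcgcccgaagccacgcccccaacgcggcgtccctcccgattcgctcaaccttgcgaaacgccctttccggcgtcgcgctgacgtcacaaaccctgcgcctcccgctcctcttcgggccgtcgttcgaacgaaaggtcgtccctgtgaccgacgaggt

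*Cox6a1* held both an NRF1 and an ETS match, *Uqcrc1*, which encodes a core protein of complex III, an NRF1 match, *Ndufa9* a YY1 match and *Cox6b1* an ETS match. From MEF to day 3 the median log2 difference was 0.35 in the 16 members with the ETS letters and 0.29 in the 49 tested members without them. It was 0.28 in the 16 with the HIF letters and 0.30 in the 49 without. It was 0.21 in the 11 members with the NRF1 letters and 0.20 in the 11 with the YY1 letters, against 0.33 in the 54 without each. From day 6 to day 9 of Control OE it was -0.21 with the NRF1 letters and -0.22 with the YY1 letters, against -0.23 without each. It was -0.22 with the ETS letters and -0.15 with the HIF letters, against -0.24 without each. In *Mettl3* OE on day 12 it was 0.33 with the NRF1 letters against 0.26 without, and 0.14 with the YY1 letters against 0.30 without. It was 0.34 with the ETS letters and 0.31 with the HIF letters, against 0.26 without each. These are descriptions of letters in a window and were not tested.

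*Mettl14* itself stood at 184 to 476 FPKM in its 15 OE libraries and at 4.30 to 7.47 FPKM in the other 33, and *Mettl3* at 1078 to 2919 FPKM against 3.33 to 6.79 FPKM. The estimated depth was 12.55 M to 38.05 M fragments per library, with a median of 23.43 M. The deposited values join 3 tables, with MEFs and day 3 in the first, days 6 and 9 in the second and days 12 and 15 in the third, and their median sums of FPKM were 234441, 392245 and 432182. Values were not compared across them, so that the steps that cross them, day 3 to 6 and day 9 to 12, are given as levels only. As a check of the labels, 8 fibroblast markers (*Col1a1*, *Thy1* and others) summed to 207 to 219 FPKM in MEFs and 79.4 to 81.1 FPKM on day 3 of Control OE. The 8 pluripotency markers (*Nanog*, *Zfp42* and others) summed to 0.178 to 0.603 FPKM in MEFs. In Control OE the pluripotency sum was 8.39 to 17.8 FPKM on day 12 and 29.8 to 40.9 FPKM on day 15. The fibroblast sum did not fall in that step, at 1762 to 2489 FPKM on day 12 and 2830 to 3250 FPKM on day 15.

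Within a library, subunits of a complex differed widely in level. The median member of Control OE on day 15 stood at 38.7 FPKM for complex I, 41.3 for complex II, 81.0 for complex III, 93.6 for complex IV and 91.8 for complex V (median of 3 libraries). The members highest in the mean of all 48 libraries, a mean over the 3 tables used only to choose names, were *Ndufa4* (77.0 FPKM) and *Ndufa7* (74.7) in complex I, *Sdha* (36.7), the flavoprotein that oxidises succinate, and *Sdhc* (36.2), a membrane anchor, in complex II, *Uqcr11* (111) and *Uqcrh* (110), small subunits of complex III, *Cox4i1* (194) and *Cox6c* (175) in complex IV, and *Atp5b* (196), the catalytic β subunit, and *Atp5d* (129), the δ subunit, in complex V. In MEFs the highest members were *Ndufc1* (44.0 FPKM), *Sdhd* (22.8), *Uqcrb* (134), *Cox6c* (187) and *Atp5j* (95.9), the mean of 3 libraries each. On day 3 of Control OE, in the same deposited table, they were *Ndufa6* (53.7 FPKM), *Sdhd* (28.3), *Uqcrb* (148), *Cox6c* (232) and *Atp5j* (107). Whether this order differs from that over all libraries by group or by table cannot be told apart. The lowest in the mean of all libraries were *Cox4i2* (1.02 FPKM), *Atp5s* (1.31) and *Cox7a1* (3.43). Named pseudogenes exist for 9 members, *Atp5c1*, *Atp5f1*, *Atp5k*, *Atp5l*, *Cox5b*, *Cox7c*, *Ndufa12*, *Ndufs5* and *Uqcrh*, and their values are uncertain where reads could be shared.

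**Figure D1:**
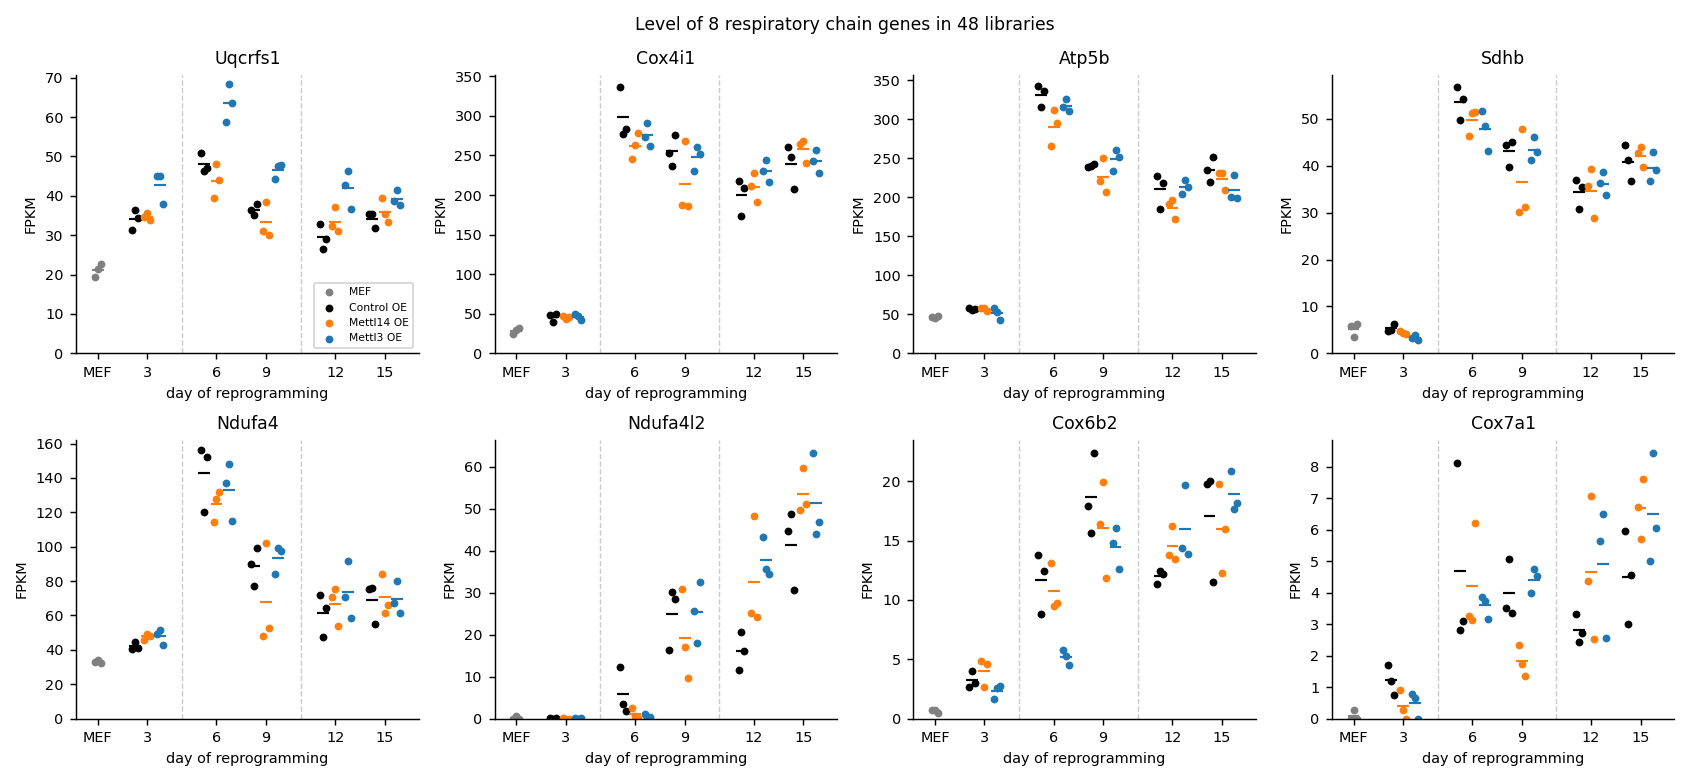
FPKM (linear axis) of 8 members in each of the 48 libraries by day, with points for libraries and bars for group means of 3 libraries. Dashed lines part the 3 deposited tables, across which levels are not comparable. *Uqcrfs1* was higher in *Mettl3* OE than in Control OE on every day, and in Control OE *Ndufa4l2* stood at 30.6 to 48.6 FPKM on day 15, above all day 12 libraries.

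From MEF to day 3 of Control OE, respiratory chain genes rose in part and none fell. Of 76 members tested, 37 were higher at an adjusted p of 0.05 in limma (48.7%), against 36.5% of 10318 genes higher and 18% lower. The median log2 difference was 0.30 over the members and 0.12 over all genes tested. By complex, 17 of 36 members of complex I, 2 of 4 of complex II, 5 of 8 of complex III, 7 of 12 of complex IV and 6 of 16 of complex V rose. All but 3 members had a difference above 0, the exceptions being *Ndufs4*, *Ndufv1* and *Atp5sl* at -0.11, -0.01 and -0.04. The changes were small: with a fold of at least 1.5 added, 5 members were called (6.58%) against 15.4% of all genes.

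*Cox6b2*, an isoform of a complex IV subunit known from testis, stood at 0.720, 0.685 and 0.507 FPKM in the MEF libraries and at 2.66, 4.02 and 2.97 FPKM on day 3. The libraries did not overlap, and the log2 difference was 1.35 ± 0.18 (SE, adjusted p = 2.57e-05 in limma). *Ndufb4*, an accessory subunit of complex I, went from 9.14 ± 1.00 to 16.9 ± 1.2 FPKM (SD, n = 3), a log2 difference of 0.82 ± 0.16 (limma adjusted p = 0.000869). *Uqcrfs1*, the Rieske iron-sulfur protein of complex III, went from 21.1 ± 1.69 to 34.0 ± 2.48 FPKM, and *Cox4i1*, the common isoform of a regulatory subunit of complex IV, from 28.6 ± 3.65 to 45.9 ± 5.42 FPKM (SD, n = 3), both at a log2 difference of 0.66 to 0.67. The abundant *Atp5b* and *Atp5a1*, which encode the β and α subunits of the ATP synthase, rose less, by 0.29 and 0.32 (*Atp5a1* was chosen after its values were seen). *Sdha* rose by 0.21, from 18.6 ± 1.13 to 21.7 ± 1.27 FPKM (SD, n = 3).

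Genes that work with the chain were counted beside the same background, 36.5% of all genes higher and 18% lower. Of 17 tested genes of the TCA cycle, which supplies its electrons, 10 rose and none fell, led by *Pdha1* (29.3 ± 0.630 to 54.3 ± 1.39 FPKM), a subunit of pyruvate dehydrogenase. Of 41 assembly factors 16 rose and 1 fell, led by *Acad9*, a complex I assembly factor, at a log2 difference of 1.01, and of 8 carriers 3 rose, among them *Slc25a4*, which exchanges ADP for ATP (132 ± 10.5 to 195 ± 6.80 FPKM). Glycolysis genes were split, with 4 of 16 higher and 7 lower. *Slc16a3*, a lactate exporter, fell from 6.49 ± 1.04 to 0.338 ± 0.0718 FPKM and *Slc2a1*, a glucose transporter, from 18.9 ± 1.57 to 7.36 ± 0.830 FPKM (SD, n = 3). Regulators of mitochondrial biogenesis were 4 higher and 2 lower of 11, with *Esrra*, a nuclear receptor that drives respiratory genes, higher by 0.86. In the same step 7 of 8 fibroblast markers were lower, with sums of 79.4 to 81.1 FPKM on day 3, while 2 of 3 tested epithelial markers were higher and 1 lower. Their part in the result was not tested. Doxycycline, the vector and the change of medium fall together in this step and cannot be told apart. With median-ratio scaling, which moves the median of all genes from 0.12 to 0.00, the median of the members was 0.17 and 19 rose. After removal of the length trend it was 0.14 and 15 rose. Without a single library the number that rose was 23 to 35, with 23 without MEF replicate 1. For these alternative fits the share of all genes that rose is not given here.

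**Figure D2:**
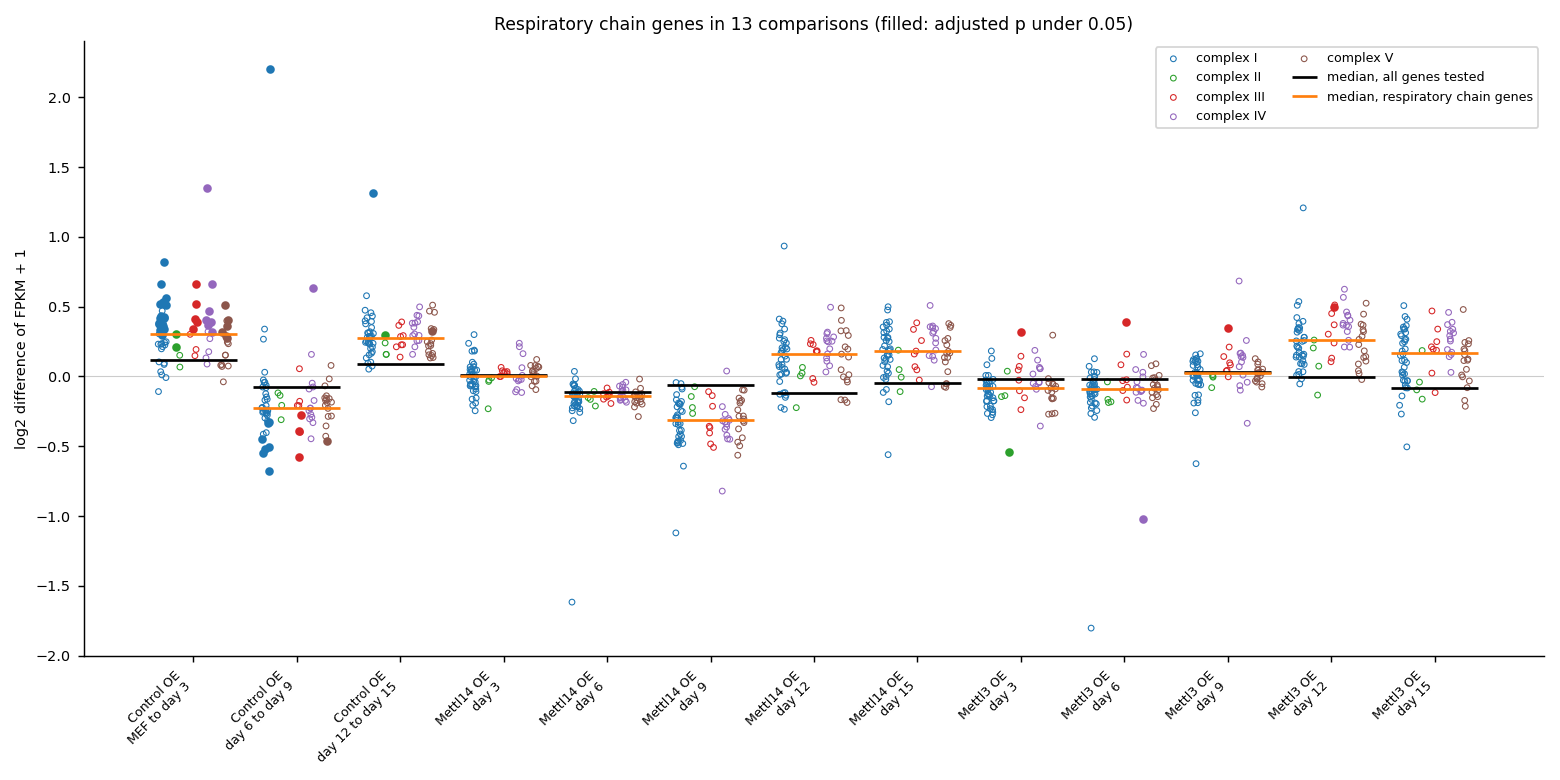
Log2 difference of FPKM + 1 (vertical axis) of each member in 13 comparisons, coloured by complex. Filled points passed an adjusted p of 0.05 in limma, and bars show the medians of the members and of all genes tested. Members passed chiefly in the step from MEF to day 3 (37 of 76), and in the *Mettl14* OE comparisons none did.

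From day 6 to day 9 of Control OE 11 of 80 respiratory chain genes fell (13.8%) against 26% of 12053 genes, and 2 rose (2.50%) against 14%. The median was -0.22 in the members and -0.08 in all genes, and 72 of 80 members had a difference below 0. The share of members called lower was therefore below the background, although their median was lower. *Ndufa10*, an accessory subunit of complex I, stood at 47.1, 46.1 and 48.2 FPKM on day 6 and at 30.7, 32.5 and 32.4 FPKM on day 9, without overlap, a log2 difference of -0.55 ± 0.09 (adjusted p = 0.000253 in limma). *Ndufa4* fell by 0.68, from 143 ± 19.6 to 88.9 ± 11.3 FPKM, and *Uqcrq*, a small subunit of complex III, fell by 0.58, from 121 ± 12.2 to 80.7 ± 11.8 FPKM (SD, n = 3). *Atp5b* fell from 332 ± 14.2 to 241 ± 2.36 FPKM, by 0.46 (limma adjusted p = 0.00102). The others that fell, named after their values were seen, were *Ndufs1*, *Ndufs8*, *Ndufv1*, core subunits of complex I, *Ndufa9* and *Ndufa12*, and *Uqcrfs1* and *Uqcrc1* of complex III. No member of complex II passed.

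*Ndufa4l2*, a paralogue of *Ndufa4* known to be induced by low oxygen, was the member with the largest difference. It was listed at 0, 0.515 and 0 FPKM in MEFs and at 0.0518, 0 and 0.0700 FPKM on day 3 of Control OE. On day 6 its libraries stood at 12.4, 3.44 and 1.73 FPKM and on day 9 at 16.3, 30.1 and 28.4 FPKM. All day 9 libraries were above all day 6 libraries, and the log2 difference was 2.2 ± 0.59 (adjusted p = 0.00984 in limma). The highest day 6 library lay close to the lowest of day 9. *Cox6b2* rose from 11.7 ± 2.56 to 18.6 ± 3.44 FPKM (SD, n = 3).

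Of 17 glycolysis genes 9 rose and none fell in the same step, led by *Slc16a3* (10.6 ± 8.97 to 42.1 ± 8.55 FPKM), *Pdk1*, a kinase that shuts off pyruvate dehydrogenase (5.54 ± 2.38 to 16.8 ± 1.65 FPKM), and *Slc2a1* (59.2 ± 47.8 to 117 ± 26.1 FPKM, SD, n = 3). Of 18 genes of the TCA cycle 11 fell, with log2 differences of -0.64 for *Idh3a*, -0.54 for *Mdh2* and -0.47 for *Cs*, the citrate synthase. Of 9 carriers 6 fell, with *Cycs*, which encodes cytochrome c, going from 14.1 ± 0.676 to 7.78 ± 0.850 FPKM (SD, n = 3). Of 76 genes of the mitochondrial ribosome 30 fell, of 43 assembly factors 19, and of 31 proteasome subunits 29, and none of these rose. All 8 fibroblast and all 8 epithelial markers rose in this step, with fibroblast sums of 998 to 1299 FPKM on day 6 and 1970 to 2347 FPKM on day 9. Their part in the result was not tested. Without single libraries, 5 (without day 9 replicate 2) to 15 members fell, and 21 fell after removal of the length trend and 18 with all 48 libraries in the fit. For these fits the share of all genes that fell is not given here. The calls of *Ndufa10* and *Ndufa4l2* held without each Control OE library of these days in turn. *Ndufa4* missed the threshold without day 9 replicate 2 or day 6 replicate 3, at a limma adjusted p of up to 0.0718, and *Uqcrq* without day 9 replicate 2. *Cox6b2* missed it without day 9 replicate 3 or day 6 replicate 2.

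From day 12 to day 15 of Control OE all 80 members had a difference above 0, with a median of 0.28 against 0.09 over all genes, but 3 passed the test (3.75%), against 15.1% of 12347 genes higher and 2.68% lower. *Ndufa4l2* stood at 11.5, 20.7 and 16.2 FPKM on day 12 and at 44.7, 48.6 and 30.6 FPKM on day 15, again without overlap, a log2 difference of 1.32 ± 0.26 (adjusted p = 0.00461 in limma). *Sdhc* rose by 0.30, from 35.5 ± 2.05 to 43.9 ± 2.34 FPKM, and *Atp5sl*, a factor of complex I assembly, by 0.32, from 5.02 ± 0.778 to 6.49 ± 0.128 FPKM (SD, n = 3). Of 17 glycolysis genes 13 rose, led by *Pfkp*, a phosphofructokinase (16.4 ± 0.980 to 25.2 ± 2.11 FPKM), and of 18 TCA cycle genes 1. Of the markers, 6 of 7 pluripotency, 5 of 7 macrophage and 3 of 8 fibroblast markers rose. The summed macrophage markers stood at 11.6 to 15.1 FPKM on day 12 and 29.4 to 47.8 FPKM on day 15, and their part in the result was not tested. The third day 15 library stood apart, with its members at a median of -0.23 relative to the mean of the table on the log2 scale, while the other libraries of the group stood at 0.12 and 0.13. Without it 25 members rose and the median was 0.39, and without day 12 replicate 2 only *Ndufa4l2* passed and the median was 0.17. For these 2 fits the share of all genes that rose is not given here. *Sdhc* passed in 2 of the 6 fits that left out a library, being lost without day 15 replicate 1 or 3 or day 12 replicate 2 or 3, at an adjusted p of up to 0.111, and with quantile normalization (log2 difference 0.17, adjusted p = 0.0823).

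Shares of the alternative isoforms in their pair are given side by side for all days and compared only within a table. *Ndufa4l2* made up 1.12% to 7.34% of the summed FPKM of *Ndufa4* and *Ndufa4l2* on day 6 of Control OE and 15.4% to 28.1% on day 9, without overlap. It made up 13.7% to 30.3% on day 12 and 35.9% to 39.0% on day 15, again without overlap, and 0% to 1.48% in MEFs. On day 15 it was 37.2% to 49.4% in *Mettl14* OE and 35.3% to 48.4% in *Mettl3* OE, overlapping with Control OE. *Cox6b2* made up 0.752% to 0.999% of *Cox6b1* and *Cox6b2* in MEFs and 2.90% to 4.52% on day 3, 4.47% to 5.56% on day 6 and 9.16% to 9.83% on day 9, and 8.08% to 10.1% on day 12 and 8.09% to 9.97% on day 15. Its libraries did not overlap in the first and second of these steps and overlapped in the third. *Cox7a1*, an isoform known from heart and skeletal muscle, made up 0% to 1.57% of *Cox7a1* and *Cox7a2* in MEFs and 3.85% to 8.40% on day 3, without overlap, and its libraries overlapped between days 6 and 9 and between days 12 and 15. *Cox4i2*, an isoform known from lung, stayed at 0.0331% to 1.64% of *Cox4i1* and *Cox4i2* in all 48 libraries.

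The genes *Atp5g1*, *Atp5g2* and *Atp5g3* encode the same mature c subunit of the ATP synthase. In MEFs *Atp5g3* held 56.0% to 62.8% of their sum, *Atp5g2* 17.6% to 23.0% and *Atp5g1* 19.6% to 22.7%. On day 3 of Control OE the share of *Atp5g2* was 17.1% to 22.7%, on day 6 33.0% to 40.2%, on day 9 40.8% to 44.8% and on day 15 42.8% to 45.1%. Its largest move thus lay between day 3 and day 6, across the first boundary of the tables, and cannot be told apart from it.

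**Figure D3:**
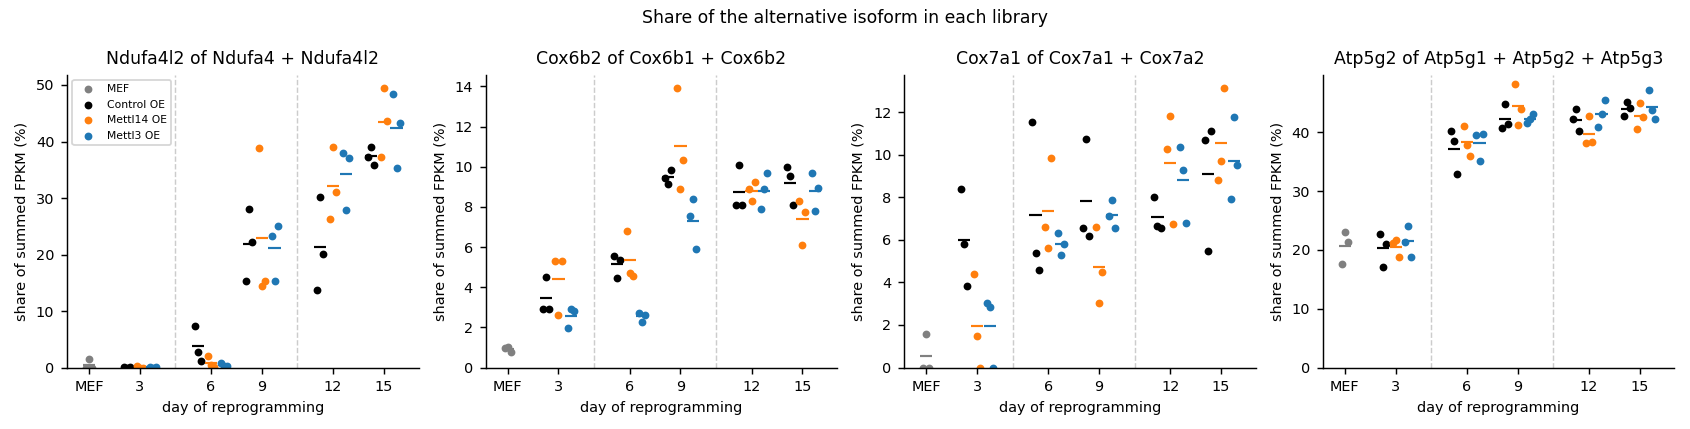
Share (%) of an alternative isoform in the summed FPKM of its pair or family, by library and day, with bars for group means and dashed lines between the deposited tables. In Control OE the *Ndufa4l2* share was 1.12% to 7.34% on day 6 and 15.4% to 28.1% on day 9, and shares are not compared across the dashed lines.

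In *Mettl14* OE no respiratory chain gene differed from Control OE at an adjusted p of 0.05 on any day. The smallest limma adjusted p of a member on the successive days was 1.00, 0.545, 0.267, 0.153 and 0.0982, where 0.0101%, 0.00866%, 0.017%, 0.0168% and 0.42% of all genes were called higher and 0.0101%, 0%, 0%, 0% and 0.635% lower. Members at an unadjusted p under 0.05 numbered 2 higher and 0 lower (day 3), 0 and 9 (day 6), 0 and 12 (day 9), 5 and 3 (day 12), and 21 and 0 (day 15). Over all genes the shares higher and lower were 2.13% and 1.29% (day 3), 0.165% and 6.98% (day 6), 0.373% and 5.81% (day 9), 1.6% and 22.9% (day 12) and 5.6% and 11.4% (day 15). The median of the members was 0.00, -0.14, -0.31, 0.16 and 0.18 on the successive days, against 0.01, -0.11, -0.06, -0.12 and -0.04 over all genes tested.

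Day 9 rested on libraries that stood apart. *Mettl14* OE replicates 1 and 3 had members at medians of -0.52 and -0.59 relative to the mean of the table on the log2 scale, whereas replicate 2, at 0.12, lay near the Control OE libraries (-0.15 to 0.10). Without replicate 2 the median difference was -0.56 and 59 of 80 members were lower, without replicate 1 it was -0.21 and without replicate 3 it was -0.18, with no member called. The share of all genes called without replicate 2 is not given here, so the 59 are not read as particular to the members. *Cox7a1* stood at 2.35, 1.75 and 1.34 FPKM in *Mettl14* OE and at 3.52, 5.06 and 3.34 FPKM in Control OE, all lower, with a log2 difference of -0.82 ± 0.15 that did not pass (adjusted p = 0.267 in limma). *Ndufs5*, a short accessory subunit with a named pseudogene, stood at 9.28, 13.3 and 6.34 FPKM against 19.1, 19.6 and 25.7 FPKM, with a log2 difference of -1.12 ± 0.21 (limma adjusted p = 0.281). It was chosen after its values were seen.

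On day 15 of *Mettl14* OE, all 3 libraries lay above all 3 of Control OE for 14 members (17.5%), against 6.47% of 12134 genes, and below them for 1 (13% of all genes). *Ndufb6*, an accessory subunit of complex I chosen after its values were seen, stood nearest to the threshold, at 62.6, 52.9 and 62.3 FPKM in *Mettl14* OE and 43.6, 50.1 and 32.8 FPKM in Control OE. Its log2 difference was 0.50 ± 0.13 (adjusted p = 0.0982 in limma). The median by complex was 0.18 for complex I, 0.02 for complex II, 0.17 for complex III, 0.29 for complex IV and 0.17 for complex V. Without the third Control OE library, which was also the low library of the step from day 12, the median of the members was 0.06 and no member was called. Without Control OE replicate 2 on that day 1 member was higher. On day 12, leaving out Control OE replicate 2 gave 1 member higher and 4 lower, and no member was called without any other library of the compared arms.

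In *Mettl3* OE 2 members passed the test on day 3, 2 on day 6 and 1 each on days 9 and 12. *Uqcrfs1* was higher than in Control OE on day 3, with 45.1, 45.1 and 37.8 FPKM against 31.4, 36.3 and 34.3 FPKM. On day 6 it stood at 58.7, 68.4 and 63.5 FPKM against 50.9, 46.2 and 47.1 FPKM, on day 9 at 44.3, 47.7 and 47.95 FPKM against 36.5, 35.1 and 37.8 FPKM, and on day 12 at 42.8, 46.2 and 36.8 FPKM against 32.8, 26.5 and 29.0 FPKM. The groups did not overlap on any of these days or on day 15, at 38.6, 41.4 and 37.8 FPKM against 35.4, 35.4 and 31.8 FPKM. Of all genes 11.3%, 13.1%, 22%, 15.8% and 7.67% lay that way on the successive days. *Uqcrfs1* was the only member whose 3 OE libraries all lay on the same side of all 3 Control OE libraries on more than 2 of the 5 days, in either arm. The share of all genes that did so was not counted, so this ranks *Uqcrfs1* among the members only.

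The log2 difference of *Uqcrfs1* was 0.32 ± 0.09 (day 3), 0.39 ± 0.09 (day 6), 0.35 ± 0.10 (day 9) and 0.50 ± 0.11 (day 12; limma adjusted p = 0.0418, 0.0447, 0.0449 and 0.0266). On day 15 it was 0.20 ± 0.09 and did not pass (adjusted p = 0.130). Among all genes 3.54%, 1.89%, 5.24%, 2.96% and 2.67% were called higher and 5.96%, 2.43%, 4.1%, 2.51% and 12.1% lower on the 5 days, and *Uqcrfs1* was the single member called higher on each of the first 4 (1.32% of the members on day 3, 1.25% on the others). The calls lay near the threshold. With no filter on low values, which raises the number of genes tested, all 4 were lost (limma adjusted p = 0.113, 0.0771, 0.0728 and 0.0685). Without single libraries the difference kept its sign and ranged from 0.26 to 0.58 on the log2 scale over these days, but it stayed past the threshold in 1, 2, 0 and 3 of the 6 such fits of days 3, 6, 9 and 12, at an adjusted p of up to 0.205. On day 3 the call held only without *Mettl3* OE replicate 3, on day 6 only without *Mettl3* OE replicate 1 or Control OE replicate 1, and on day 12 without *Mettl3* OE replicate 3 or Control OE replicate 1 or 2. In *Mettl14* OE the level of *Uqcrfs1* overlapped with Control OE on day 15 (36.0 ± 3.10 against 34.2 ± 2.09 FPKM, SD, n = 3), and the difference between the arms was not tested. Fibroblast markers were lower in *Mettl3* OE on the first 3 of these days, with 3 of 5 called on day 3, 2 of 8 on day 6 and 6 of 8 on day 9. Their sums were 56.1 to 58.9 FPKM against 79.4 to 81.1 FPKM on day 3, 487 to 795 against 998 to 1299 FPKM on day 6 and 1433 to 1586 against 1970 to 2347 FPKM on day 9. On day 12 the marker sums overlapped, at 2044 to 2295 against 1762 to 2489 FPKM. Their part in the result was not tested.

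A pair of members was called lower in *Mettl3* OE, each on a single day. *Cox6b2* stood at 5.74, 5.23 and 4.54 FPKM on day 6, against 13.8, 8.84 and 12.4 FPKM in Control OE, a log2 difference of -1.02 ± 0.16 (adjusted p = 0.0155 in limma, with 2.43% of all genes called lower). Its share of the pair was 2.27% to 2.73%, against 4.47% to 5.56% in Control OE. On day 9 its level was 14.5 ± 1.75 against 18.6 ± 3.44 FPKM (SD, n = 3), with overlap. On day 12 all 3 *Mettl3* OE libraries of *Cox6b2* lay above those of Control OE, as did those of 15.8% of all genes. The call of day 6 was lost without *Mettl3* OE replicate 2 or 3 or Control OE replicate 3, at an adjusted p of up to 0.0909. *Sdhb*, the iron-sulfur subunit of complex II, stood at 3.27, 3.99 and 2.76 FPKM on day 3 against 4.77, 4.98 and 6.17 FPKM, a log2 difference of -0.54 ± 0.11 (limma adjusted p = 0.0146, with 5.96% of all genes called lower). It was lost without Control OE replicate 3 (adjusted p = 0.0506) and with no filter on low values (adjusted p = 0.0572). In MEFs *Sdhb* spread from 3.48 to 6.14 FPKM. From day 6 on, its *Mettl3* OE libraries overlapped with those of Control OE.

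On day 12 of *Mettl3* OE 76 of 80 members had a difference above 0, with a median of 0.26 against 0.00 over all genes. Besides *Uqcrfs1* none passed, while 26 members (32.5%) were higher at an unadjusted p under 0.05, against 12.9% of all genes. *Ndufa4l2* stood at 43.2, 35.6 and 34.4 FPKM against 11.5, 20.7 and 16.2 FPKM, a log2 difference of 1.21 ± 0.29 (adjusted p = 0.0548 in limma). On day 6 it had stood below Control OE in all libraries, at 1.01, 0.424 and 0.328 FPKM against 12.4, 3.44 and 1.73 FPKM (-1.80 ± 0.65, limma adjusted p = 0.161). With median-ratio scaling 15 members were higher on day 12, and without single libraries 0 to 16 (0 without *Mettl3* OE replicate 1 or 2 or Control OE replicate 3, and 16 without *Mettl3* OE replicate 3). For these fits the share of all genes called higher is not given here. On day 15, 60 of 80 members had a difference above 0 (median 0.17 against -0.08 over all genes) and none passed, against 2.67% of genes called higher and 12.1% lower. Median-ratio scaling gave 4 members higher, removal of the length trend 9 higher and 1 lower, and single libraries left out 0 to 9 higher, with 9 without Control OE replicate 2. At an unadjusted p under 0.05 19 were higher (6.49% of all genes) and 3 lower (24.8%). All 7 tested pluripotency markers and 3 of 8 fibroblast markers were lower in *Mettl3* OE on that day, with pluripotency sums of 8.56 to 12.9 FPKM against 29.8 to 40.9 FPKM. Their part in the result was not tested.

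The step from day 6 to day 9 and that from day 12 to day 15 did not differ between an OE arm and Control OE for any member at an adjusted p of 0.05 in limma, where at most 0.0498% of all genes were called in a direction. At an unadjusted p under 0.05 there were 0 members higher and 1 lower in *Mettl14* OE for the first step (1.23% and 0.415% of all genes) and 2 higher and 1 lower in *Mettl3* OE (8.15% and 2.48%). For the second step there were 0 and 0 in *Mettl14* OE (3.65% and 1.04%) and 0 and 4 in *Mettl3* OE (0.445% and 6.01%).

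**Figure D4:**
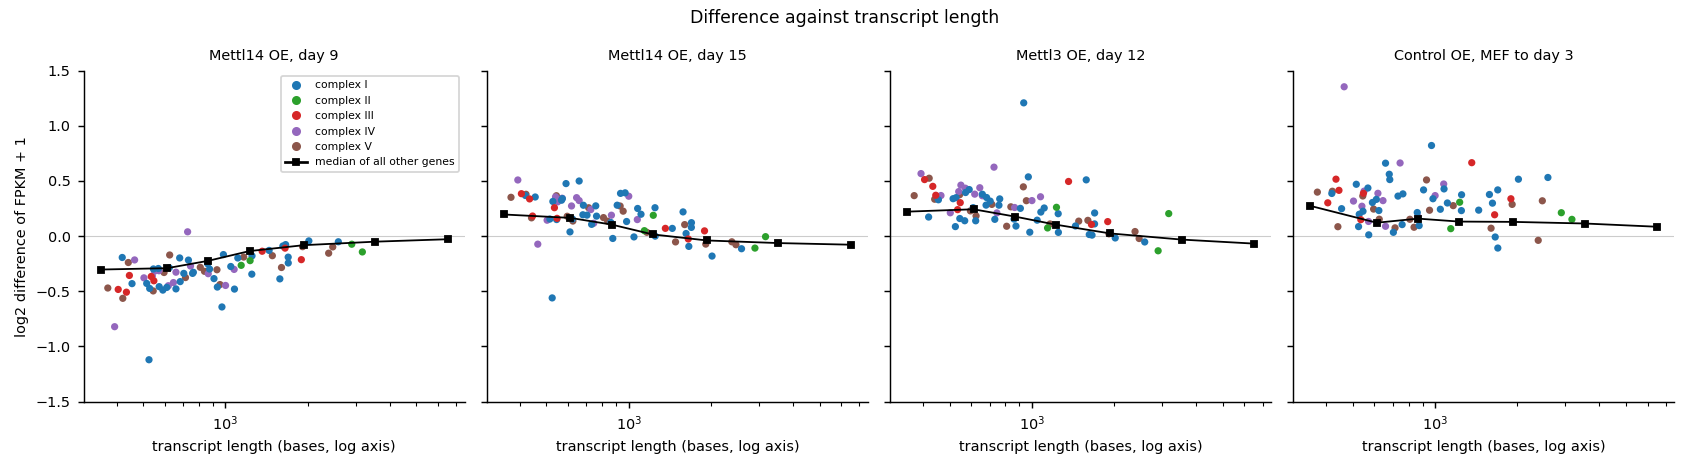
Log2 difference of FPKM + 1 against transcript length (log axis) for the members, coloured by complex, in 4 comparisons. Squares join the medians of all other genes in 7 classes of length, each drawn near the middle of its class. Short members and other short genes moved together in the comparisons of arms, while the step from MEF to day 3 showed little slope.

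Because many subunits have short transcripts, the differences were set beside length. Lengths came from GENCODE M21 and had a median of 760 bases over the members, from 371 (*Atp5k*) to 3171 bases (*Sdhc*). In *Mettl14* OE on day 15 the 52 members under 1000 bases had a median of 0.26 and the 28 longer members 0.04, and on day 12 0.21 and 0.00. On day 9 the medians were -0.36 and -0.18. In *Mettl3* OE they were 0.33 and 0.12 on day 12 and 0.22 and -0.01 on day 15. Across members, which share libraries and are not independent, Spearman's rho of length and difference was -0.60 for *Mettl14* OE on day 15, -0.61 on day 12 and 0.64 on day 9, and over all genes -0.28, -0.38 and 0.38.

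Other genes of like length moved alike. In *Mettl14* OE on day 15 the median difference of 199 other genes under 500 bases was 0.20, that of 1238 genes from 1000 to under 1500 bases was 0.02 and that of 2073 genes of 5000 bases and over was -0.08. The 79 cytosolic ribosomal protein genes, which have no part in respiration and a median length of 761 bases, were close to the members in the comparisons of arms given next. Their medians were -0.36 in *Mettl14* OE on day 9 (members -0.31), 0.18 on day 12 (members 0.16) and 0.23 on day 15 (members 0.18), and in *Mettl3* OE 0.31 on day 12 (members 0.26) and 0.18 on day 15 (members 0.17). When the trend with length was removed from each library, the median of the members was -0.07, 0.04 and 0.07 in *Mettl14* OE on days 9, 12 and 15, and 0.07 and 0.05 in *Mettl3* OE on days 12 and 15. In the step from day 12 to day 15 of Control OE it was 0.07, and the ribosomal protein genes stood at 0.29 in the values as deposited.

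The control steps of the early days differed from this pattern. From MEF to day 3 members under 1000 bases and longer members had medians of 0.32 and 0.30, with rho of -0.12, and the ribosomal protein genes stood at 0.22. From day 6 to day 9 the medians were -0.21 and -0.23, with rho of -0.10, and the ribosomal protein genes stood at -0.04. *Uqcrfs1* has a transcript of 1363 bases, and in *Mettl3* OE it passed on each of days 3, 6, 9 and 12 after removal of the length trend too, though not with no filter on low values.

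**Figure D5:**
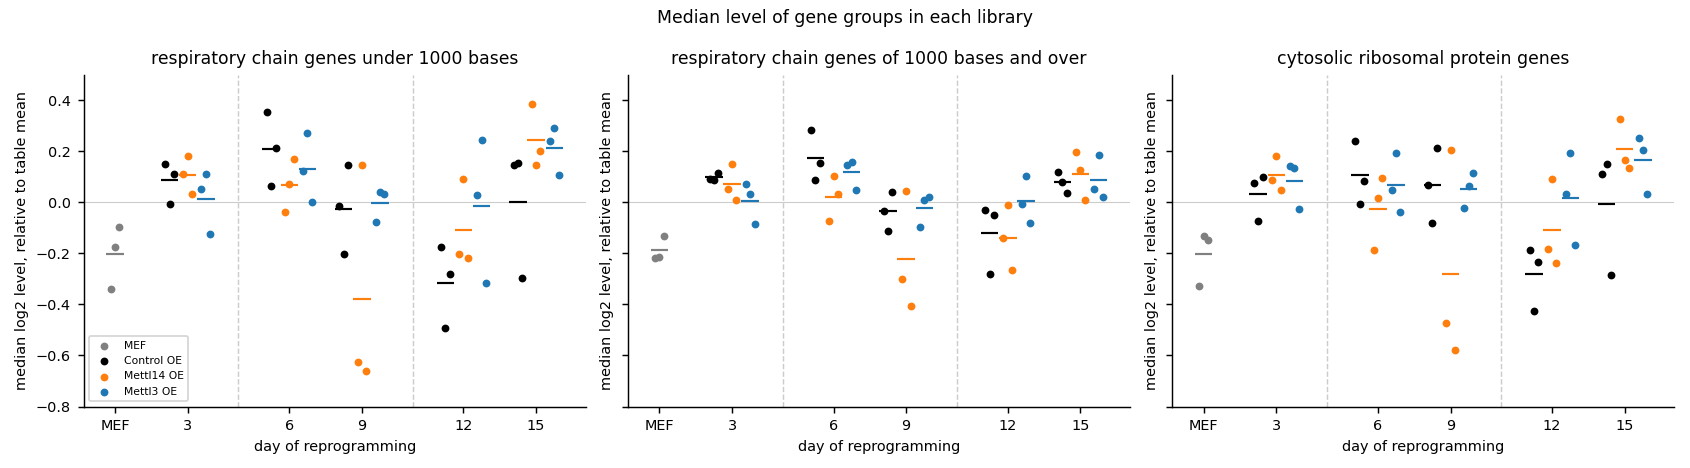
Median log2 level of gene groups in each library, relative to the mean over the libraries of its deposited table (vertical axis), by day, with bars for group means. *Mettl14* OE replicates 1 and 3 on day 9 and Control OE replicate 3 on day 15 were low in the short members and in the cytosolic ribosomal protein genes, and the third Control OE library of day 15 was not low in the longer members. All Control OE libraries of day 12 also lay below the mean of their table in the short members and ribosomal protein genes.

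By library, the same split was seen inside groups. The members under 1000 bases stood at -0.62 and -0.66 relative to the mean of the table in replicates 1 and 3 of *Mettl14* OE on day 9, the longer members at -0.30 and -0.41, and the ribosomal protein genes at -0.47 and -0.58. In Control OE replicate 3 of day 15 the short members stood at -0.30, the longer members at 0.04 and the ribosomal protein genes at -0.28, whereas in replicates 1 and 2 the short members stood at 0.15 and 0.15. These were not the only low libraries. In Control OE of day 12 the short members stood at -0.49 to -0.18, the longer members at -0.28 to -0.03 and the ribosomal protein genes at -0.42 to -0.19. In *Mettl3* OE of day 12 the short members spread from -0.32 to 0.25. Over the 48 libraries the median of the members and that of the ribosomal protein genes were at most 0.13 apart. The cause of the differences between libraries was not tested.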

How the data were processed

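Poly(A) RNA of 48 libraries (16 groups of 3) was sequenced after a stranded library kit. Per the submitters' processing notes the authors used TopHat2 2.1.1, mm9 and Cufflinks 2.2.1, and they deposited FPKM values, joined from 3 tables, for 24013 lines. After removal of 1 duplicate line and summing of lines that share a name, 24010 genes were kept, and 27 lines bore a date in place of a gene name. No column was left unmapped. Depth was estimated from the smallest steps of low FPKM values. Each comparison of arms was fitted on all libraries of its day, and each step on all libraries of both times, arms outside the contrast included. The SE and p-values therefore rest on the spread in those arms too. A gene entered a fit when 3 or more of its libraries reached 1 FPKM. The p-values were adjusted by Benjamini-Hochberg over all genes tested. Tests were run on log2(FPKM + 1) with limma 3.58.1 (trend, robust) in R 4.3.3. A fold change on this scale understates that of low genes. Scripts ran in Python 3.11.15 with pandas 2.3.3, NumPy 2.4.6 and matplotlib 3.10.9 and were tested on simulated data. Named genes were the 2 members of each complex with the highest mean FPKM, members of isoform families, the 3 members with the largest called difference in each direction of a comparison and up to 3 called genes of each list. Others are marked or complete a count. Alternatives were a pseudocount of 0.1, no filter, median-ratio scaling, quantile normalization, removal of the length trend, all 48 libraries in the fit, a replicate block and leaving out each library of the compared groups. Libraries of arms outside a contrast were not left out. Members and lists were chosen with earlier results of these data known. Promoters came from RefSeq on GRCm38.p6, another build than mm9, and were matched by symbol, and the NRF1 and YY1 cores replaced longer forms after those had been searched. Transcript lengths came from GENCODE M21. Subunits encoded in mitochondrial DNA were not analysed here.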

Additional observations from a re-analysis of the deposited data

Results flagged for a closer look

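In *Mettl14* OE, 3 members had all 3 libraries above Control OE on one day and all 3 below on another (3.75% of 80), against 4.27% of 12738 genes. These were *Ndufa7*, higher on day 15 and lower on day 6, and *Ndufa8* and *Ndufv1*, higher on day 3 and lower on day 6. In *Mettl3* OE, 3 members (3.75%) did so as well, against 14.5% of genes, namely *Cox6b2*, *Ndufa4l2* and *Sdhc*, each lower on day 6 and higher on day 12. The difference between the days was not tested.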

How the results depend on the processing

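No called difference of a named member reversed its direction under the alternatives run. These differences had been chosen because they passed the test, and counts of members were not scored for a reversal. Of the processing alternatives, 112 values of named members stayed on their side of the threshold and 7 were lost. Of the fits without a single library, 70 stayed and 32 were lost.

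Counts of members called moved as follows, and the shares of all genes called in the same fits are not given here. In *Mettl3* OE on day 3, no filter gave 0 higher and 0 lower, median-ratio scaling 2 lower, quantile normalization 2 higher and length-trend removal 3 lower. On day 6, no filter gave 0 higher, length-trend removal 2 higher and 2 lower, and all 48 libraries 2 lower. On day 9, no filter gave 0 higher, median-ratio scaling and quantile normalization 1 lower each, and length-trend removal 2 higher and 2 lower. On day 12, no filter gave 0 higher, median-ratio scaling 15, quantile normalization 8 higher and 1 lower, length-trend removal 6 and all 48 libraries 3. On day 15, median-ratio scaling gave 4 higher, quantile normalization 2 higher and 2 lower, length-trend removal 9 higher and 1 lower, and all 48 libraries 1 lower. In *Mettl14* OE on day 15 median-ratio scaling gave 1 higher. From MEF to day 3, median-ratio scaling gave 19 higher, quantile normalization 19 higher and 1 lower, and length-trend removal 15 higher. From day 6 to day 9, these gave 4, 5 and 6 higher, with 21 lower for length-trend removal and 18 lower for all 48 libraries. The causes were not tested.

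Without a single library, the counts ranged from 0 to 2 higher and 0 to 2 lower in *Mettl3* OE on day 3, 0 to 1 each on day 6, 0 to 0 higher on day 9, 0 to 16 higher on day 12, and 0 to 9 higher and 0 to 1 lower on day 15. In *Mettl14* OE they ranged from 0 to 59 lower on day 9, 0 to 1 higher and 0 to 4 lower on day 12 and 0 to 1 higher on day 15. They ranged from 23 to 35 higher from MEF to day 3, 1 to 2 higher and 5 to 15 lower from day 6 to day 9, and 1 to 25 higher from day 12 to day 15.

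The labels do not say whether replicate numbers pair the libraries, and the main fits did not pair them. Same-numbered libraries correlated at -0.30 to 0.34 in their deviations, and in no comparison did every pair exceed 0.1. The highest values were those of replicate 1 on day 6, at 0.34 for *Mettl3* OE and 0.17 for *Mettl14* OE with Control OE. Such correlations cannot show that libraries were unpaired. The replicate block gave 3 members lower in *Mettl3* OE on day 6, 0 higher on day 9 (*Uqcrfs1* at a limma adjusted p of 0.0846), 4 higher on day 12 and 5 higher on day 15, and 9 higher from day 12 to day 15 of Control OE.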
